A study of Rattus norvegicus with 6 samples.

Results

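A set of 9 genes of the machinery that fuses secretory granules with the cell membrane were followed in rat pancreatic islets, the endocrine cell clusters of the pancreas. They are the SNARE genes Snap25, Snap23, Stx1a, Stx3, Stx4, Vamp2, Vamp3 and Vamp8, and the complexin gene Cplx1. Members were found through the RefSeq transcript that the array names for each probe, matched to gene symbols of the GRCr8 assembly. Of the 9 genes, 8 had a probe, among 13882 protein-coding genes that could be named in this way. No probe was matched to Snap25, so it was not analysed here. Each of the 8 had 1 probe, spotted once per array.

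Islets of adult male rats were compared with islets pooled from rats aged 10 days (P10), so that the mature tissue can be set against the tissue of suckling pups. There were 3 arrays for each stage, with 1 Cy3-labelled sample per array. The labels number the adult samples as different rats and the P10 samples as different pools. The adult age, the strain and the sex of the P10 rats were not given in the sources used here, and neither was a treatment or genotype. Adult arrays 2 and 3 differed by about as much as repeated spots of 1 probe, and so did P10 arrays 1 and 2. Each of these pairs was averaged and counted as 1 sample, which leaves n = 2 per stage. Adult array 1 was scanned together with the 3 P10 arrays, and adult arrays 2 and 3 in a second scan. The spread between the adult samples cannot be told from a difference between scans. Of 24684 probes, 17823 to 18725 were well above background on adult arrays and 17908 to 18495 on P10 arrays. The number of arrays limits the precision.

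SNARE proteins drive membrane fusion by zipping into a bundle of helices that bridges 2 membranes. The vesicle carries a VAMP, also called synaptobrevin, and the cell membrane carries a syntaxin and a protein of the SNAP-25 family. Complexins clamp and activate the partly zipped bundle until calcium, sensed by synaptotagmins, triggers fusion. In the beta cell, which secretes insulin, VAMP2, syntaxin 1A and SNAP-25 are the best known set, while VAMP8, syntaxin 3, syntaxin 4 and SNAP-23 also serve other routes of secretion there and in acinar and epithelial cells.

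Of the 8 measured members, 2 were higher in adult islets (Cplx1 and Vamp2), 2 were lower (Stx1a and Stx4) and 4 did not pass the test. Levels are log2 signal relative to the 75th percentile of the array, and changes are adult minus P10 on that scale, with the standard error (SE) and the p-value of limma adjusted over all 18355 tested probes. Among 11391 named protein-coding genes, each by its brightest tested probe, 23.7% were higher, 28.8% were lower and 52.4% were called in either direction at an adjusted p under 0.05. The 4 of 8 members called are thus near the share of all genes, and their number is no result about the members. With quantile normalization the same 4 members were called in the same directions, against 30.0% of named genes higher, 27.2% lower and 57.2% in either direction. Their median change was 0.13, against -0.13 over the named genes. In 6 of the 8 the adult and P10 arrays did not overlap. Adult arrays lay above in Snap23, Vamp2 and Cplx1 (35.3% of named genes) and below in Stx1a, Stx3 and Stx4 (42.8%), and either held for 78.1% of named genes.

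The promoters of the 4 members that passed the test are shown here because the 2 that rose and the 2 that fell can be set side by side. Each runs from 250 bases before to 50 after the RefSeq start of the gene in GRCr8, 5′ to 3′ on the strand of the gene. Capitals mark the GC box GGGCGG and the core of the cyclic AMP response element, TGACG, each searched on both strands. Vamp2 lies at chr10:54292539-54292838 (+), Cplx1 at chr14:1328823-1329122 (+), Stx1a at chr12:27306422-27306721 (-) and Stx4 at chr1:191881817-191882116 (+).
Vamp2: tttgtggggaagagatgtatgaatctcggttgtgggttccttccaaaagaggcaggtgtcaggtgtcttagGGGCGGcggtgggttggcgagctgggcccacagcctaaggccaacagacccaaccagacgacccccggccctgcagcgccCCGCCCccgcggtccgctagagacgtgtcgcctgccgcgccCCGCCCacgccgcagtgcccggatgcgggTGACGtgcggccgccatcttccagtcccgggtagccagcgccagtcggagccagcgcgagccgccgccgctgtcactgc
Cplx1: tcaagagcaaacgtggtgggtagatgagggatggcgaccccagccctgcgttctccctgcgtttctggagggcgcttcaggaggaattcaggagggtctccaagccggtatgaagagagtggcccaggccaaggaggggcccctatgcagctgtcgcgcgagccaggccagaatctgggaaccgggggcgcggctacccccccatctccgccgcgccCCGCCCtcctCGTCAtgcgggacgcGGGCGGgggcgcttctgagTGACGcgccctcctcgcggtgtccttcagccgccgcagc
Stx1a: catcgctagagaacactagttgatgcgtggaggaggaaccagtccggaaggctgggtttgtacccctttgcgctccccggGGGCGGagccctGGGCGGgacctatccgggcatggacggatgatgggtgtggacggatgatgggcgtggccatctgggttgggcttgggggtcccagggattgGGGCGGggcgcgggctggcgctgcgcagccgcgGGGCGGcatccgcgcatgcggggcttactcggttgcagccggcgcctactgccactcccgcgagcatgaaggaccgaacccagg
Stx4: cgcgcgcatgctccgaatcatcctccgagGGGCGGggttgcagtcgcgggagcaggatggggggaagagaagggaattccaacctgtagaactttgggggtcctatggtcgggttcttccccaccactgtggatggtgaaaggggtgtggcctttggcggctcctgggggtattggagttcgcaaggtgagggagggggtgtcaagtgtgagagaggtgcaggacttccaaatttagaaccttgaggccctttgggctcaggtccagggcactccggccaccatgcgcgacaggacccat

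A TGACG match was found in the windows of Vamp2 (1 match) and Cplx1 (2 matches), and in none of the other 5 members with a promoter sequence (Stx1a, Stx3, Stx4, Snap23 and Vamp8). The Vamp2 match begins 29 bases before the start, and the Cplx1 matches begin 23 bases before and 11 bases after it. Over 27457 rat promoters of the same length, 22.0% held TGACG. The GC box was found in 6 of the 7 members, with 4 matches each in Stx1a and Stx3, 3 in Vamp2, 2 in Cplx1 and 1 each in Stx4 and Vamp8, against 34.9% of all promoters. The 8-base core GCGCATGC of the NRF1 site occurred in Stx1a and Stx4, and in 2.66% of all promoters. The TATA box TATAAA (14.3% of promoters) and the E-box CACGTG (6.65%) occurred in 0 of the 7. CpG dinucleotides numbered 31 in Vamp2, 28 in Cplx1, 28 in Stx1a and 14 in Stx4, with a median of 7 over all promoters. CCAAT occurred in Snap23, Stx1a, Stx3 and Stx4, and in 37.7% of promoters. These matches describe the letters of the windows and were not tied to binding.

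Of Vamp2, Vamp3 and Vamp8, the 3 vesicle SNAREs followed here, Vamp2 alone passed the test. VAMP2 is the synaptobrevin of insulin granules and of synaptic vesicles. Its level was 4.29, 4.28 and 4.36 on adult arrays 1, 2 and 3, and 2.93, 2.92 and 2.99 on P10 arrays 1, 2 and 3. All adult arrays stood above all P10 arrays, and the arrays of a stage lay close together. The rise was 1.35 (SE 0.13, limma adjusted p = 0.00395), or 2.55-fold. It was 1.51 with quantile normalization and 1.33 within the scan that held both stages. Without P10 array 3 the rise was 1.38 (limma adjusted p = 0.0593), and without P10 arrays 1 and 2 it was 1.32 (limma adjusted p = 0.0685). A fit with 1 sample in a stage, as here and within 1 scan, takes the spread from the other stage alone, so its change is read and its p-value supports nothing.

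Vamp3 encodes cellubrevin, a widely expressed VAMP of recycling membranes. Its level was 2.08, 2.48 and 2.52 on the adult arrays and 2.18, 2.27 and 2.25 on the P10 arrays. Adult array 1 lay below the P10 arrays and the other two adult arrays above them. The change of 0.05 (SE 0.20, limma adjusted p = 0.848) had a 95% confidence interval of -0.51 to 0.60. It was -0.16 with adult array 1 as the only adult sample and 0.26 without that array.

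Vamp8, or endobrevin, serves endosomes, zymogen granules of acinar cells and other regulated granules. Its level was 2.02, 2.71 and 2.82 on the adult arrays and 2.24, 2.27 and 2.11 on the P10 arrays. Here too adult array 1 stood below all P10 arrays while adult arrays 2 and 3 stood above them. The change was 0.21 (SE 0.30, limma adjusted p = 0.577), with a 95% confidence interval of -0.62 to 1.05. Without adult array 1 the value was 0.58, and with adult array 1 as the only adult sample, within the scan that held both stages, it was -0.16. The value thus depends on which adult sample is used, and adult sample and scan cannot be told apart here. Summed signals of 14 acinar markers, in multiples of the 75th percentile signal of the array, were 683, 932 and 969 on adult arrays 1, 2 and 3 and 1940 to 2050 on P10 arrays. These sums depend on the scaling. In log2 the 75th percentile was 10.93 to 11.36 on adult arrays, highest on adult array 1, and 9.92 to 9.99 on P10 arrays. With quantile normalization the acinar sums lay closer, at 1680000 to 1900000 signal units on adult arrays and 2040000 on P10 arrays. The part of acinar RNA in the Vamp8 signal was not tested.

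Within an array, the scaling cancels when 1 member is subtracted from another, and only the change of that difference between stages is read. In all, 5 pairs of members were compared over all arrays with an exact two-sided permutation test, whose smallest possible p is 0.1 for 3 against 3 arrays and 0.2 where Stx1a is involved. Vamp2 minus Vamp3 was 2.21, 1.80 and 1.84 on the adult arrays and 0.74, 0.66 and 0.74 on the P10 arrays. Vamp2 thus rose by 1.24 more than Vamp3, or 2.36-fold (exact permutation p = 0.1, Benjamini-Hochberg adjusted over the 5 pairs 0.25), with no overlap between stages. Against Vamp8 the difference was 1.05, or 2.07-fold (exact permutation p = 0.1, adjusted 0.25), also without overlap. Over the 4 counted samples these differences were 1.30 and 1.14 (exact permutation p = 0.333 each, the smallest that 2 against 2 allow). No pair could pass a threshold of 0.05 in this design.

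**Figure D1:**
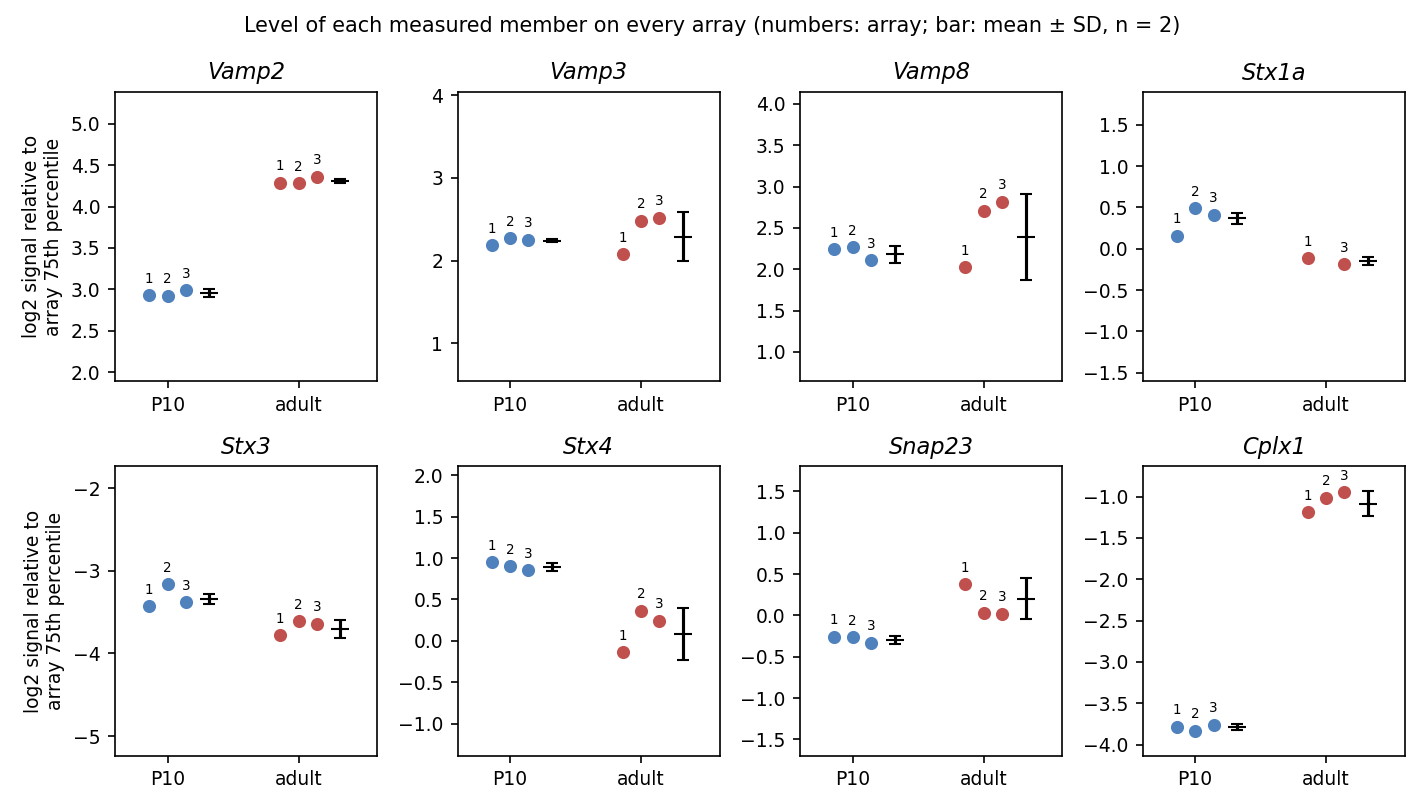
Level of each measured member on every array, as log2 signal relative to the 75th percentile of the array, with P10 in blue and adult in red and the array number above each point. Bars give the mean ± SD of the 2 counted samples per stage, and each panel spans 3.5 log2 units. Vamp2 and Cplx1 stand apart between stages, Stx1a and Stx4 stand lower in adults, and Vamp3 and Vamp8 overlap. The Stx1a spot of adult array 2 was marked as an outlier by the scanner software and is left out.

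The syntaxins of the cell membrane did not rise with Vamp2. Stx1a encodes syntaxin 1A, the syntaxin of neurons and endocrine cells. Its level was -0.11 and -0.18 on adult arrays 1 and 3 and 0.16, 0.49 and 0.41 on the P10 arrays. The spot of adult array 2 had been flagged and was left out, so array 3 alone stands for that adult sample. The fall was -0.52 (SE 0.13, limma adjusted p = 0.0387), a level 1.43-fold higher at P10. Of the 11391 named genes, 35.8% had a lower change than Stx1a. With the flagged spot kept, the 3 adult arrays read -0.15, -0.43 and -0.24, all below the P10 arrays, and the change was -0.57 (limma adjusted p = 0.0379). The call was lost with scaling to the array median, at -0.21 (limma adjusted p = 0.425), with normexp background correction, at -0.54 (limma adjusted p = 0.0759) and with no filter on dim probes (limma adjusted p = 0.0595). Without P10 arrays 1 and 2 the change was -0.56 and without P10 array 3 it was -0.47.

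Stx4 encodes syntaxin 4, a widely expressed syntaxin that also serves insulin granule fusion and glucose transporter delivery. It had the largest fall among the members, though 27.5% of the 11391 named genes had a lower change. Its level was -0.14, 0.36 and 0.24 on the adult arrays and 0.95, 0.90 and 0.86 on the P10 arrays. All adult arrays lay below all P10 arrays, array 1 furthest. The fall was -0.81 (SE 0.20, limma adjusted p = 0.0367), or 1.75-fold. It was -0.83 with quantile normalization, -0.51 with median scaling (limma adjusted p = 0.0471) and -1.03 within the scan that held both stages. With normexp the change was -0.75 (limma adjusted p = 0.0745), and without P10 array 3 or P10 arrays 1 and 2 it was -0.84 and -0.77.

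Stx3, a syntaxin of apical membranes in epithelia and of granules, stood at -3.78, -3.61 and -3.64 on the adult arrays and -3.43, -3.16 and -3.38 on the P10 arrays. The adult arrays lay below the P10 arrays, but with quantile normalization the stages overlapped. The change was -0.36 (SE 0.14, limma adjusted p = 0.101), with a 95% confidence interval of -0.76 to 0.04, and with quantile normalization it was -0.09. With every array as its own sample the change was -0.35 (limma adjusted p = 0.0259). That fit counts the averaged arrays separately, so its p-value is not read as support. The Stx3 change was -0.44 with adult array 1 as the only adult sample and -0.29 without that array.

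Whether the syntaxins changed unequally was not settled, since the smallest possible p of the permutation test was 0.2 here. Stx1a minus Stx3 changed by -0.12 between stages (exact permutation p = 0.6, adjusted 0.6) and Stx1a minus Stx4 by 0.35 (exact permutation p = 0.4, adjusted 0.5), and the arrays of the stages overlapped in both. Over the 4 counted samples these differences were -0.16 and 0.29 (exact permutation p = 0.667 each). These p-values do not show that the syntaxins changed alike.

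Snap23 encodes SNAP-23, the broadly expressed relative of the neuronal and endocrine SNAP-25. Its level was 0.38, 0.03 and 0.02 on the adult arrays and -0.26, -0.27 and -0.33 on the P10 arrays. All adult arrays were above all P10 arrays, with adult array 1 highest. The change was 0.50 (SE 0.18, limma adjusted p = 0.0858), with a 95% confidence interval of -0.01 to 1.00. With every array as its own sample it was 0.43 (limma adjusted p = 0.0208), but there too the averaged arrays are counted separately. The Snap23 change was 0.67 with adult array 1 as the only adult sample and 0.32 without that array. Since no Snap25 probe was matched, the comparison of the SNAP-25 family that had been planned could not be made.

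Cplx1 had the largest change of the members. Complexin 1 binds the assembled SNARE bundle and, in neurons and beta cells, times calcium-triggered release. Its level was -1.19, -1.01 and -0.95 on the adult arrays and -3.78, -3.83 and -3.76 on the P10 arrays. The gap between stages was far wider than the spread within either. The rise was 2.70 (SE 0.15, limma adjusted p = 0.00165), or 6.48-fold, and was larger than that of 96.9% of the 11391 named genes. Over the 16 alternatives tried, the Cplx1 change ranged from 2.04 with normexp to 3.00 with median scaling. Some of these nearly repeat one another, and fits that leave 1 sample in a stage are read for the change only. Cplx1 passed the test with quantile normalization, median scaling and normexp. Before scaling, its processed signal was 68.0 to 74.1 on the P10 arrays, well above background there by the scanner software, and 1010 to 1150 on the adult arrays. Cplx1 minus Stx1a differed between stages by 3.22, or 9.34-fold, with no overlap (exact permutation p = 0.2, the smallest these arrays allow, adjusted 0.333).

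**Figure D2:**
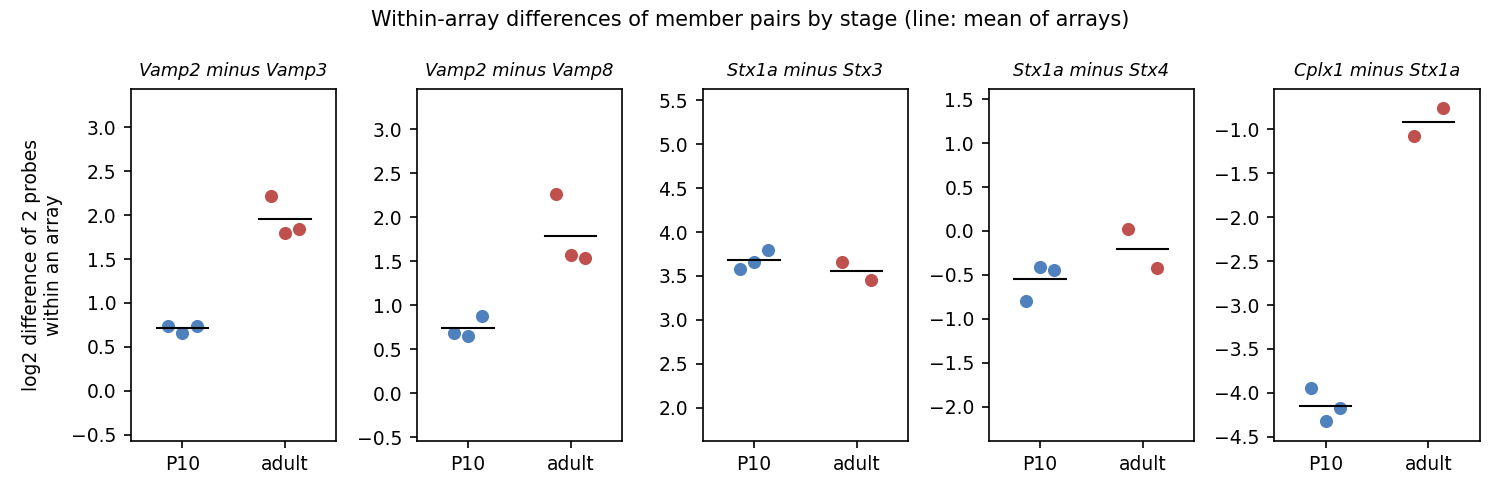
Difference in log2 signal between 2 members within each array, by stage, with P10 in blue, adult in red and lines at the mean of the arrays. Each panel spans 4 log2 units. Vamp2 minus Vamp3, Vamp2 minus Vamp8 and Cplx1 minus Stx1a do not overlap between stages, while the syntaxin pairs do. Adult array 2 is missing where Stx1a is part of the pair.

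The scaling bears on the direction of the small changes. The 75th percentile of log2 signal was 10.93 to 11.36 on adult arrays and 9.92 to 9.99 on P10 arrays, and before it was subtracted all 8 members read higher on every adult array than on every P10 array, as did 72.2% of named genes. Changes are therefore relative to the other transcripts of the array. The median over the 18355 probes was -0.23 with the 75th percentile, -0.02 with quantile normalization and 0.07 with median scaling. Cplx1, Vamp2 and Stx4 kept their direction and passed under these 3 scalings, and Stx1a did so under the first and the second. In the authors' deposited table of normalized values, which lists 7 of the 8 members but not Stx1a, the same comparison gave 2.85 for Cplx1, 1.52 for Vamp2 and -0.82 for Stx4.

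**Figure D3:**
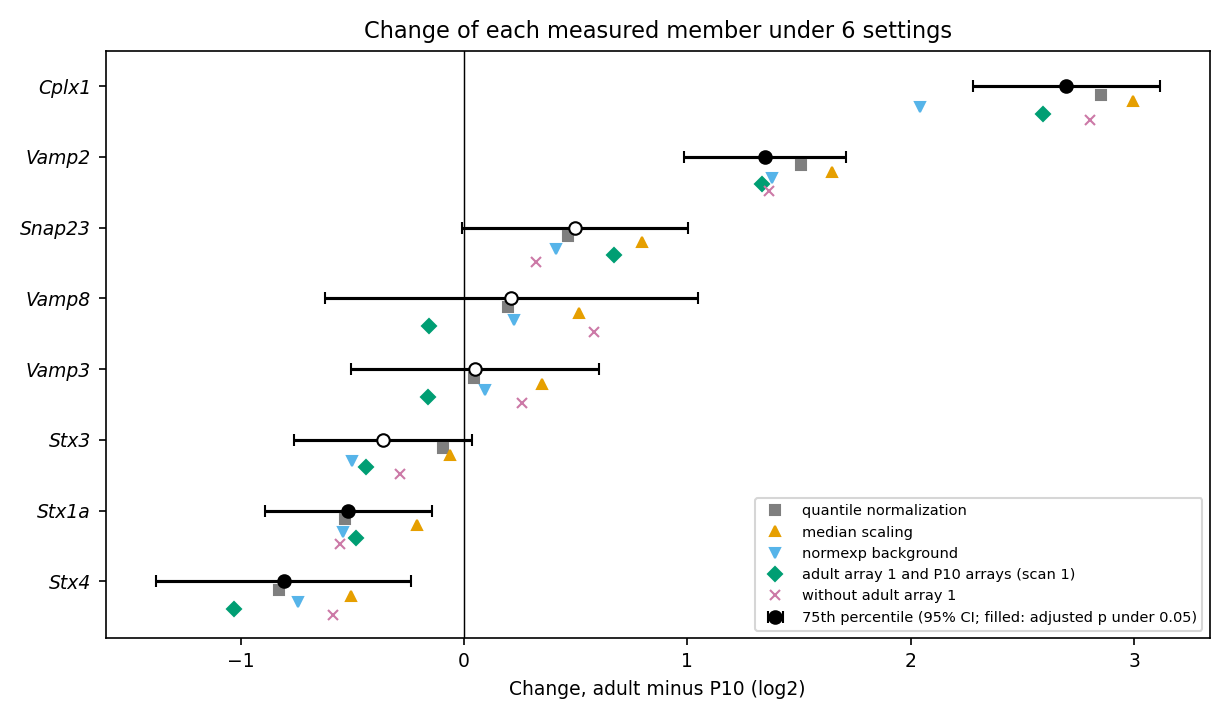
Change of each measured member, adult minus P10 in log2, with the 95% confidence interval of the limma fit on values scaled to the 75th percentile (black, filled where the adjusted p is under 0.05). Coloured marks give the same change under 5 other settings. Cplx1 and Vamp2 lie to the right of 0 and Stx4 and Stx1a to the left in every setting shown, whereas Vamp3 and Vamp8 cross 0.

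The other genes of the pathway were described from lists of SNAREs by compartment, regulators and disassembly factors. Of 23 other SNARE genes tested, 3 were higher, 4 were lower and 16 did not pass, so that 30.4% were called, against 52.4% of all named genes (23.7% higher and 28.8% lower). Their median change was 0.09. At the cell membrane and on secretory vesicles, Vamp1, a close relative of Vamp2, rose by 0.70 (SE 0.17, limma adjusted p = 0.0321) and Stx2, a syntaxin of epithelia and acinar cells, fell by 0.79 (limma adjusted p = 0.031). With quantile normalization Stx2 stood at -0.25 (limma adjusted p = 0.196). On endosomes and the trans-Golgi network, Vamp4, which is sorted from maturing granules, rose by 1.53 (SE 0.16, limma adjusted p = 0.00477), and Vti1a, a partner of syntaxin 6 and syntaxin 16, fell by 0.86 (limma adjusted p = 0.016). Vamp4 stood at 1.18, 1.43 and 1.48 on the adult arrays and -0.08, -0.34 and -0.21 on the P10 arrays, without overlap. Between the endoplasmic reticulum and the Golgi, Bet1 rose by 0.86 (limma adjusted p = 0.0165), while Bnip1 fell by 0.82 (limma adjusted p = 0.0174) and Stx5 by 0.62 (limma adjusted p = 0.0385). The Stx5 call was lost with median scaling (-0.32, limma adjusted p = 0.126), normexp (0.0829) and no filter (0.053). With normexp the limma adjusted p was also above the threshold for Vamp1 (0.0704), Vti1a (0.0865), Bnip1 (0.0713) and Stx2 (0.15).

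Of 14 tested regulators of SNAREs, 7 were higher, 0 were lower and 7 did not pass the test of limma, and the median change was 0.71. The number called is near the 52.4% of all named genes, of which 23.7% were higher and 28.8% lower. With quantile normalization 8 were higher and 1 was lower, the latter being Stxbp2, a syntaxin-binding protein of non-neuronal secretory cells, named after its value was seen (-0.75, limma adjusted p = 0.0262). Cadps, a priming factor of dense-core granules, rose by 2.81 (SE 0.13, limma adjusted p = 0.00143), from -0.56, -0.42 and -0.42 on the P10 arrays to 2.32, 2.44 and 2.36 on the adult arrays. Cplx2, the second complexin measured and named here after its value was seen, rose by 0.99 (SE 0.14, limma adjusted p = 0.00918), less than Cplx1 at 2.70, a difference that was not tested.

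Some of the genes that moved most on the regulator list are membrane proteins of vesicles rather than regulators in the strict sense. Syp encodes synaptophysin, a vesicle protein that binds VAMP2. It read 1.64, 1.70 and 1.45 on the adult arrays and -2.47, -2.48 and -2.57 on the P10 arrays, a rise of 4.13 (SE 0.13, limma adjusted p = 0.00131). Sv2c, of the family of SV2 vesicle glycoproteins, read -2.94, -1.55 and -1.53 on the adult arrays and -4.07, -4.21 and -4.77 on the P10 arrays. Its rise was 2.21 (SE 0.57, limma adjusted p = 0.0378), with adult array 1 well below the other two. With normexp it was 1.25 (limma adjusted p = 0.144), and without P10 array 3 it was 1.90.

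SNARE bundles are taken apart after fusion by the ATPase NSF with its SNAP adaptors, which are unrelated to SNAP-25. Nsf rose by 0.98 (SE 0.14, limma adjusted p = 0.00927) and the adaptor gene Napg by 0.80 (SE 0.15, limma adjusted p = 0.0169). The adaptor gene Napa stood at 0.04 (SE 0.29, limma adjusted p = 0.914), with -0.32 for adult array 1 alone and 0.40 without it, and no probe was matched to Napb. Without P10 array 3 or P10 arrays 1 and 2 the changes were 0.95 and 1.01 for Nsf and 0.83 and 0.78 for Napg.

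**Figure D4:**
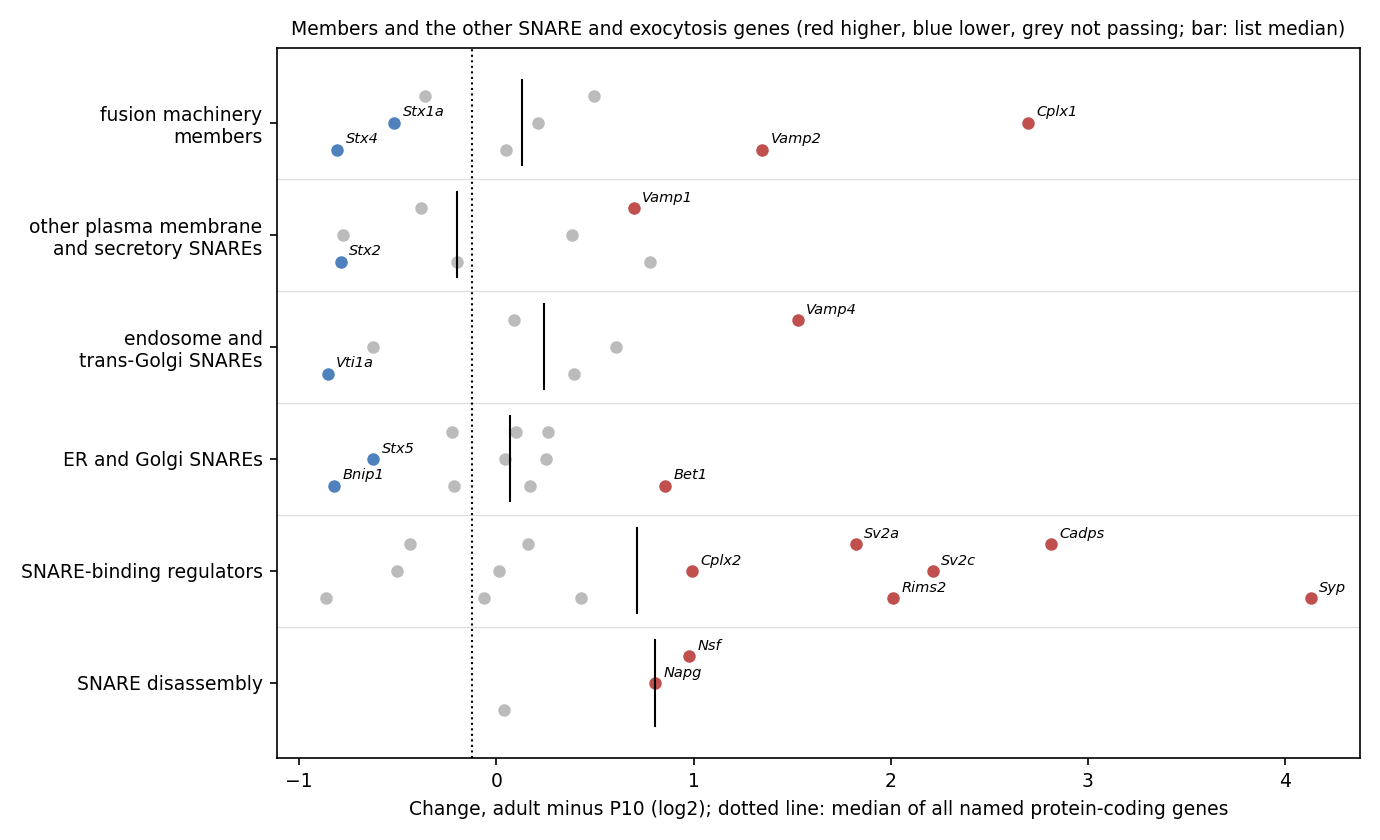
Change of the tested genes, adult minus P10 in log2, by list, except 1 regulator that is not reported here, with genes that passed at an adjusted p under 0.05 named and coloured red (higher) or blue (lower). Bars mark the list medians and the dotted line the median of all named protein-coding genes, -0.13. The calls among regulators and disassembly genes are all on the right, while SNAREs of each compartment were called on both sides.

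Markers of islet and other cells were read on the same arrays. The hormone genes of the labelled tissue, Ins1, Ins2, Gcg and Sst, were well above background on every array. Relative to the 75th percentile of the array, Ins1 (-0.93, limma adjusted p = 0.0248) and Gcg (-0.80, limma adjusted p = 0.0436) were lower in adults. On that scale Ins2 (-0.58) and Sst (0.03) did not pass. With quantile normalization Ins1, Gcg and Ins2 stood at 0.18, 0.32 and 0.45 and did not pass, and Sst rose by 1.09 (limma adjusted p = 0.0117). All 9 tested pan-endocrine markers (granins and granule proteins) were higher in adults, with a median change of 1.75 and a summed signal of 418 to 491 on adult arrays against 124 to 127 at P10. Neuron and Schwann cell markers, which matter because Cplx1, Vamp2, Stx1a and Syp are also neuronal, were higher for 9 and lower for 2 of 15, with sums of 12 to 13.6 against 6.04 to 6.47. Sums run over the markers with a value on every array. For comparison, 23.7% of all named genes were higher and 28.8% lower. Leukocyte markers were higher for 12 of 12 (39.8 to 46.5 against 10.2 to 10.8), and of these Cd79b and Itgam were not well above background at P10. In the other direction, 11 of 11 enterocyte markers (7.61 to 8.51 against 282.0 to 297) and 12 of 14 acinar markers (683 to 969 against 1940 to 2050) were lower in adults. These calls and sums are relative to the 75th percentile of the array. In log2 it was 10.93 to 11.36 on adult arrays and 9.92 to 9.99 on P10 arrays. With quantile normalization 5 acinar markers were lower and 1 higher, and the acinar sums lay closer (1680000 to 1900000 against 2040000 signal units). Epithelial and acinar cells are known to use Stx3, Stx4, Snap23 and Vamp8 as well. The part of each cell type in the changes of the members was not tested. In RNA of whole islets, fewer cells of a type and less RNA per cell cannot be told apart.

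The genes nearest in pattern to the members at the ends of the range were found over the 6 arrays, as the Euclidean distance between log2 levels centred on the mean of each gene, among 11167 genes. Nearest to Cplx1 were Hfe (distance 0.10), Slc35d3 (0.10), Cxcl6 (0.11), Dpysl5 (0.12) and St18 (0.14). Among the nearest to Stx4 were Orc2 (0.06), Elf3 (0.06), Tufm (0.08) and Myg1 (0.08). With 2 stages this distance reflects mainly the size of the change.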

How the data were processed

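RNA of rat islets was measured on 6 Agilent arrays of 1 colour, 3 per stage. Per the file headers, the authors' scanner files hold spot intensity after background subtraction and spatial detrending, without scaling across arrays, from Agilent Feature Extraction 11.0.1.1 (the version also stands in the submitters' processing notes). Normalized log2 values came in 2 further tables that the authors deposited, whose method was not given in the sources used here. Of the values for mRNA probes, 99.99% were within 0.05 of a quantile normalization of the processed intensities. The array annotation uses an older genome build than the RefSeq tables (GRCr8), which served for names and promoter sequences only.

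Flagged outlier spots were left out, the log2 processed intensities of a probe were averaged, and the 75th percentile of each array was subtracted. Of the probes, 14286 received a gene symbol. A probe was tested where 1 stage or both had it well above background throughout (3 of 3 arrays) and each counted sample had a value (18355 probes). Genes with several probes were represented by the brightest tested one.

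For probes with 3 spots, the squared difference between 2 arrays, divided by the variance predicted from spots, had a median of 1.08 times the value for no difference in adult arrays 2 and 3 and 1.04 times in P10 arrays 1 and 2. In the other P10 pairs it was 1.85 and 1.34, and in the other adult pairs 26.9 and 22.8. For 141 genes with 2 bright probes, the differences between 2 arrays were also correlated across the 2 probes. Spearman rho was 0.13 in adult arrays 2 and 3 and 0.27 in P10 arrays 1 and 2. In the other P10 pairs rho was 0.41 and 0.47, and in the other adult pairs 0.77 and 0.78. A difference beyond spot noise between P10 arrays 1 and 2 is thus not excluded. Adult arrays 2 and 3, and P10 arrays 1 and 2, were each averaged. Spots of 1 probe on 1 array had a median SD of 0.085 to 0.109. The deposited files do not settle whether averaged arrays carry separate RNA. Adult minus P10 was fitted with limma 3.58.1 (R 4.3.3), p-values were adjusted by Benjamini-Hochberg over all tested probes, and the threshold was 0.05. The fit was tested on simulated data. Pairs of members were compared with scipy 1.17.1.

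Same-numbered arrays of the 2 stages did not deviate together (r = -0.21, 0.08 and -0.24), so the numbers were not taken as pairs. The members and gene lists were chosen with earlier results of these data known. Named genes are all members, up to 4 genes per direction of each other list with the largest change among those called, all genes of lists of up to 6, and the 5 nearest in pattern to the members with the largest rise and fall. The rule also covers the 3 brightest genes of each marker list, which are described here by counts and sums instead. The few markers named were chosen after their values were seen. Of the genes the rule names, 1 regulator and 1 near neighbour of Stx4 are not reported here, though counts and medians include them. The normexp alternative used spot medians in place of means. Alternatives covered scaling, background, filters, scan, the counting of arrays and left-out samples. Keeping flagged spots was added after the data were seen. Alpha, beta, delta and PP, duct, endothelial and stromal markers were also counted: 5 of 8, 6 of 9, 2 of 5, 1 of 4, 0 of 6 and 2 of 5 were higher, and 3, 1, 0, 2, 0 and 3 lower. Over all named genes the shares were 23.7% higher and 28.8% lower.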

Additional observations from a re-analysis of the deposited data

How the results depend on the processing

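Of 124 combinations of a member and an alternative, 95 kept direction and side of the threshold. Vamp3 and Vamp8 turned to -0.16 each, and Napa to -0.32, in 3 settings. These were the scan as a block, the scan that held both stages alone, and the data without adult arrays 2 and 3. Without adult array 1 the changes of Vamp3, Vamp8 and Napa were 0.26, 0.58 and 0.40. Stx1a minus Stx3 turned to 0.12 with normexp. The count of members lower in adults (2) was 1 with the replicate block, median scaling, the authors' values, no filter and the filter on all 6 arrays, of which the authors' values, the replicate block and the last filter do not include Stx1a, and 0 with normexp. Leaving out counted samples in turn gave 1 to 4 members higher and 0 to 3 lower, 9 to 21 other pathway genes higher (15) and 0 to 12 lower (4), and 18 to 42 markers lower (34). Other pathway genes lower were 9 with every array as its own sample, 2 with median scaling and 0 with normexp. Their count also moved in the fits by scan. Markers lower were 22 with the authors' values, which list fewer probes. Pairing the arrays by number (replicate block) moved no other count by over 1.5 times, and Snap23 then passed (0.43, limma adjusted p = 0.0455). That fit counts the averaged arrays separately, so this pass is not read as support. Where not named, the cause was not tested. With 2 samples per stage, leaving out 1 leaves the spread to the other stage, as do the fits by scan. Calls and counts from such fits are not read as support. Without either P10 sample Vamp2 stayed at 1.32 to 1.38, Stx1a at -0.56 to -0.47, Stx4 at -0.84 to -0.77 and Cplx1 at 2.67 to 2.72. The spots of the 8 measured members that were kept were well above background.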

Other observations

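Transcription regulators of neuroendocrine cells were read beside the exocytosis genes. Neurod1, which drives endocrine differentiation and insulin transcription, read 3.44, 3.48 and 3.55 on the adult arrays and 1.06, 1.01 and 1.02 on the P10 arrays, a rise of 2.45 (SE 0.13, limma adjusted p = 0.00156). The zinc finger gene Myt1 rose by 2.56 (SE 0.14, limma adjusted p = 0.0017) and the LIM homeobox gene Isl1 by 1.81 (SE 0.24, limma adjusted p = 0.00756). The stages did not overlap in any of these 3 genes. Rest encodes the repressor that keeps neuronal genes silent outside neurons and endocrine cells. Its probe was not well above background on any adult array and was so on 2 of the 3 P10 arrays, so it was not tested. No probe was matched to Insm1 or Rcor1.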
